A study of Mus musculus with 2 samples.

Results

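Open chromatin regions inside introns were described in gastrocnemius, a calf muscle, from 2 male B6CASTF1/J mice aged 36 days. These animals are F1 hybrids of the C57BL/6J and CAST/EiJ strains. Each gave 1 DNase-seq library, called replicate 1 and replicate 2 here, and both belong to 1 group with no second condition. DNase-seq maps DNA that DNase I can cut in isolated nuclei, so these whole-tissue libraries hold the nuclei of fibres and of all other cells, and fewer cells of a type and less accessibility per cell cannot be told apart. The shorter of the deposited peak lists of each library were merged where peaks shared at least 1 bp. Of 63849 merged regions, 32662 held a peak of each library, which is 51.2%. Among these, 7095 lay over 1 kb from every annotated start site, inside a gene body and outside every exon, or 21.7% (95% interval 21.3 to 22.2). A further 16798 lay within 1 kb of a start site and are called promoter regions here, 1420 touched an exon and 7349 were intergenic. Of the intronic regions, 2039 lay in an intron that is the first one of every transcript spanning it, 3669 lay in a later intron of every such transcript, and 1386 lay in a first intron of one transcript and a later intron of another. The last one fell in no intron of a single transcript. All positions are on mm10, and the annotation is GENCODE M21 with 132629 start sites. Intervals are exact (Clopper-Pearson for shares, Poisson for densities) and reflect counting error alone; with 1 library per animal they say nothing of the spread among mice.

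Many enhancers, the DNA elements that raise transcription from a distance, sit within introns of the gene they act on or of a neighbour. The first intron follows the promoter directly and is usually the longest intron of a gene, and it is known for holding regulatory elements and alternative promoters. Open sites within introns also include binding sites of CTCF, a zinc finger protein that folds chromatin into loops. In muscle, factors such as MyoD, which reads the E-box, MEF2, TEAD and the nuclear factor I family act at distal elements of fibre genes.

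Sequences of 6 strong regions show what such sites look like. They were chosen for high peak values in both libraries, or as the strongest intronic region of a regulator named further on, and none touches an exon in RefSeq. Sequences are from the reference assembly (C57BL/6J), plus strand, and bases covered by a deposited footprint of both libraries are in capitals. A footprint is a short stretch within an open region that is cut less than its surroundings, as when a protein covers it. Mnt (a repressor that pairs with MAX) and Nfib (a nuclear factor I gene) hold theirs in a first intron, at chr11:74832161-74832400 and chr4:82513201-82513440. The regions of Itpkb (an inositol trisphosphate kinase), Atoh8 (a helix-loop-helix factor), Zbtb16 (a zinc finger factor) and Igf1r (the receptor of insulin-like growth factor I) lie in later introns, at chr1:180387541-180387760, chr6:72216721-72216940, chr9:48740261-48740440 and chr7:68129101-68129360.
Mnt: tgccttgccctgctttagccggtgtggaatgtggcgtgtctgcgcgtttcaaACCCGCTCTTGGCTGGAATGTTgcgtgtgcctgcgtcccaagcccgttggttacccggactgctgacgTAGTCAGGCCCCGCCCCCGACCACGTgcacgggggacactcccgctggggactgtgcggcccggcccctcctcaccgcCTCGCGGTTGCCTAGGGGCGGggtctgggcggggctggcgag
Nfib: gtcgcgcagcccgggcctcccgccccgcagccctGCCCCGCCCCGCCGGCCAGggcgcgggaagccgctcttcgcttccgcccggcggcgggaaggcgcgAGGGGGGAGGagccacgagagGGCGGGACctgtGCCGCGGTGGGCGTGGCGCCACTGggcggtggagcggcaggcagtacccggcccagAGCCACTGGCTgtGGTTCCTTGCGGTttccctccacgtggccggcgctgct
Itpkb: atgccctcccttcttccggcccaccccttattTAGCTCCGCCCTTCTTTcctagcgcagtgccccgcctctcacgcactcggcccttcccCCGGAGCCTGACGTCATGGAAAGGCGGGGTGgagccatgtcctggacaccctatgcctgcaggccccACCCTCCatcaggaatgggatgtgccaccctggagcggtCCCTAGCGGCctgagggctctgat
Atoh8: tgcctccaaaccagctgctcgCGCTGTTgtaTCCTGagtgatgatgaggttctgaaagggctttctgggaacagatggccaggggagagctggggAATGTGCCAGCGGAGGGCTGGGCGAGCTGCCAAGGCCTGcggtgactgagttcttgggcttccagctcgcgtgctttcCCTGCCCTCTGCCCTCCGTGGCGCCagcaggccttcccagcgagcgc
Zbtb16: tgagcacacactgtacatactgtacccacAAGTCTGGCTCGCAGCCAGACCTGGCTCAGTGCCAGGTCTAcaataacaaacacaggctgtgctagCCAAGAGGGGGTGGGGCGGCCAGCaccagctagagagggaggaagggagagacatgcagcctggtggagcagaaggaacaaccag
Igf1r: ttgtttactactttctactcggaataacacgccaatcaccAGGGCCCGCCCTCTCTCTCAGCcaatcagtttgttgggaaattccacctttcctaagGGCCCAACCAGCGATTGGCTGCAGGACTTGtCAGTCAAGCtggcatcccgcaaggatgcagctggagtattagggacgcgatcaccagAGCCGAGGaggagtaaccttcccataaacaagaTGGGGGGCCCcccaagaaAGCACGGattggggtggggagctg

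The Mnt region had a peak value of 17.1 in replicate 1 and 10.7 in replicate 2. It holds the TEAD motif CATTCC at positions 26 and 67 from the left end of the printed run, and GGGCGG, the motif of SP and KLF factors, at 131, 214 and 225. Of these, the matches at 67, 131 and 214 overlap capitals. At Nfib the values were 13.9 and 7.91, with a match to the CTCF motif at position 113 and 5 matches to GGGCGG. The Itpkb region had 16.3 and 9.15, and its match to GGGCGG at position 38 overlaps capitals. The Atoh8 region (13.8 and 11.4) holds a TEAD match at 94 and the nuclear factor I core TTGGCA at 123, both in capitals in part or whole, and the MyoD E-box CAGCTG at 12 outside them. In Zbtb16 (11.2 and 7.04) the motif of the glucocorticoid receptor begins at position 4, outside the capitals, and Zbtb16 is known as a gene that glucocorticoids induce. Igf1r (10.9 and 7.94) has a match to GGGCGG at 46 in capitals and an E-box at 156 outside them. A match is a string in the reference and not evidence of binding.

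A pair of regions shows a CTCF motif that overlaps a shared footprint. They were chosen after their values were seen as strong examples in a first and a later intron. That of Aldh2 (mitochondrial aldehyde dehydrogenase) lies in its first intron at chr5:121584241-121584480, with values of 12 and 7.25. That of Tmprss6 (a serine protease) lies in a later intron at chr15:78447721-78447920, with values of 7.93 and 6.82. The matches begin at positions 167 and 90. That of Aldh2 lies in capitals in part only, and that of Tmprss6 in whole.
Aldh2: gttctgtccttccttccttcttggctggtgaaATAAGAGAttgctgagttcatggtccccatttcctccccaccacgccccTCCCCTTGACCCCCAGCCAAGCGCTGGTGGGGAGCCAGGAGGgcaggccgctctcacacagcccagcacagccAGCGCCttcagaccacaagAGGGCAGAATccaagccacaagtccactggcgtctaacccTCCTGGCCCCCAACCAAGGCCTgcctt
Tmprss6: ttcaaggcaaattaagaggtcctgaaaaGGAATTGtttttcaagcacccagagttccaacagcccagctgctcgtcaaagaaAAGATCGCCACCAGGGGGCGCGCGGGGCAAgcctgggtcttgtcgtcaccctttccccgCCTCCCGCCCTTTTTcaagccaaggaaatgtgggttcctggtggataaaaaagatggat

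Intronic regions were narrower and weaker than promoter regions and close to intergenic ones. Their median width was 200 bp (quartiles 180 and 241), against 280 bp for promoter regions. The value of a peak is the authors' height of cleavage density, and it is ranked within a library only, since the scaling is not stated. Median values of intronic regions were 1.86 in replicate 1 and 1.34 in replicate 2, against 3.81 and 2.87 for promoter regions, 2.02 and 1.56 for exonic and 1.87 and 1.39 for intergenic regions. Expressed as percentiles of all peaks of the library, intronic regions had medians of 52.9 and 50.6, against 78.8 and 78.4 for promoter regions. Both percentiles reached 80 at 358 intronic regions (5.05%), against 42.1% of promoter regions. Regions just past the 1 kb limit, from 1.0 to 1.5 kb, numbered 413 with median values of 2.01 and 1.43. Those from 0.5 to 1.0 kb that met the other criteria numbered 681, with 2.10 and 1.56.

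First-intron regions ranked above later-intron regions, mainly in replicate 1. Median percentiles in replicate 1 were 55.7 in first introns (quartiles 37.1 and 70.8) and 51.3 in later introns (32.3 and 66.7). In replicate 2 they were 51.6 (37.0 and 66.9) and 50.1 (34.1 and 66.2). The differences were 4.42 and 1.44, with an SD of 2.10 between the libraries. Over all intronic peaks of replicate 2, whether or not replicate 1 had one, the difference was 0, and over those of replicate 1 it was 3.87. The quartile ranges overlapped widely, and the difference in strength rests on replicate 1. A percentile below 50 in both libraries was found for 31.9% of first-intron regions and 36.8% of later-intron regions.

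**Figure D1:**
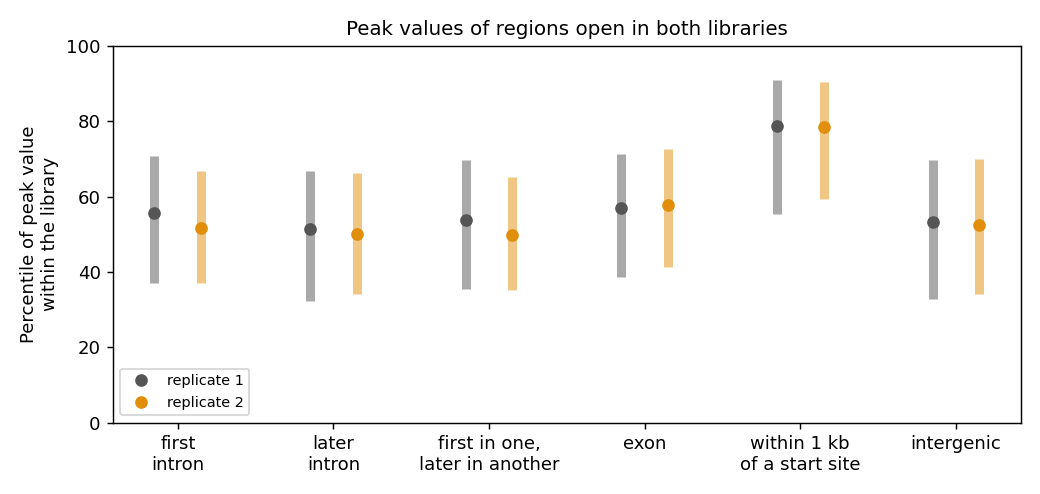
Percentile of the highest peak of each library within regions open in both, for first introns, later introns, introns that are first in one transcript and later in another, exons, regions within 1 kb of a start site and intergenic regions. Points are medians and bars run between quartiles, grey for replicate 1 and orange for replicate 2. The medians of first introns were 55.7 and 51.6 and those of later introns 51.3 and 50.1, all below the promoter medians of 78.8 and 78.4.

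Recurrence of intronic regions rose with their strength. Of all 18053 merged intronic regions, 39.3% held a peak of each library (38.6 to 40), against 65.4% of promoter, 39.3% of exonic and 44.5% of intergenic regions. Replicate 1 alone had 6558 and replicate 2 alone 4400. By intron, the share was 38.0% (36.7 to 39.3) in first introns and 40.4% (39.4 to 41.5) in later introns. For intronic peaks of replicate 1, recurrence was 23.7% below the 20th percentile, then 38.5%, 60.5% and 85.8% in steps of 20, and 98.9% at the top. In replicate 2 these shares were 11.8%, 65.5%, 83.7%, 94.9% and 99.3%. The content of single-library regions is given with the other observations.

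Nearly every intronic region held a footprint. At least 1 footprint lay in 96.5% of them in replicate 1 and 98.4% in replicate 2. Footprints of both libraries overlapped in 86.8% (86.0 to 87.6), against 85.2% of promoter regions. The share was 85.7% in first introns and 88.0% in later introns. It followed strength, from 65.8% of intronic regions whose lower percentile was under 20 to 99.7% of those at 80 or above. At the same low strength, 33.0% of promoter regions had a shared footprint, and at the same high strength 99.4%. Footprints cannot be compared between the libraries, because replicate 2 had 234134 footprints and replicate 1 had 155037, at depths that are unknown.

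Open regions were denser in first introns than in later ones. Set against the intronic bases that lie over 1 kb from every start site and in no exon, first introns had 8.20 regions per Mb over 249 Mb and later introns 6.23 per Mb over 589 Mb. The ratio was 1.32 (1.25 to 1.39). Introns that are first in one transcript and later in another had 7.75 per Mb. Both animals showed the same direction with their own peaks, at 15.6 against 11.9 per Mb in replicate 1 (ratio 1.31, 1.25 to 1.36) and 14.2 against 9.71 per Mb in replicate 2 (1.46, 1.40 to 1.53). Without the regions and bases inside Gm20388 and Fgfr2, a pair of very long gene models chosen after their values were seen, the ratio was 1.28.

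Much of the difference lay close to start sites. First-intron regions had a median distance of 6.60 kb from the nearest start site and later-intron regions 12.6 kb. From 1 to 2 kb from a start site, density was 12.3 per Mb in first introns and 7.79 in later introns, a ratio of 1.58 (1.32 to 1.89). From 2 to 5 kb the ratio was 1.31 (1.16 to 1.47), and from 5 to 10 kb it was 1.24 (1.10 to 1.40). Between 10 and 20 kb the densities were 7.80 and 7.22 per Mb, and the interval of the ratio of 1.08 held 1 (0.956 to 1.22). With its own peaks alone, each library had a ratio just above 1 there, 1.11 (1.01 to 1.21) in replicate 1 and 1.22 (1.11 to 1.34) in replicate 2.

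Over all genes, the interval of the ratio also held 1 at each distance beyond 20 kb. The ratio was 0.922 (0.801 to 1.06) from 20 to 50 kb and 1.13 (0.866 to 1.45) from 50 to 100 kb. Over 100 kb it was 1.46 (0.837 to 2.43), from 19 and 83 regions. With later-intron densities applied to the distances of first-intron bases, 1695 regions would lie in first introns where 2039 were found, a ratio of 1.20. The same ratio was 1.22 with the peaks of replicate 1 and 1.30 with those of replicate 2.

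**Figure D2:**
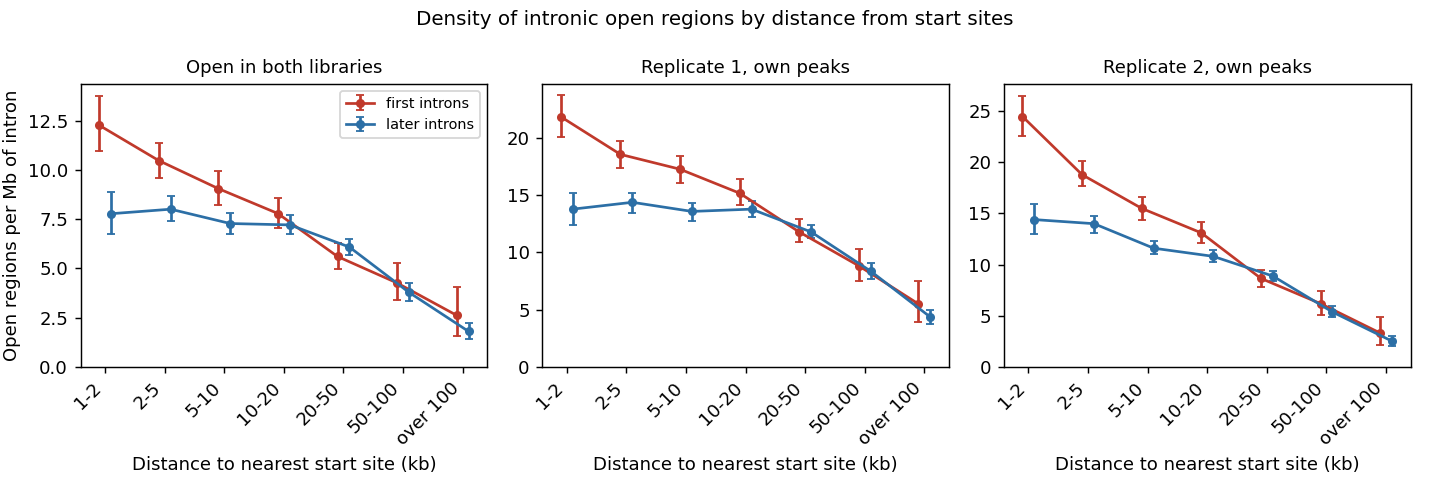
Intronic open regions per Mb of intron against distance to the nearest annotated start site (kb), for first introns (red) and later introns (blue), with exact Poisson 95% intervals. The panels show regions open in both libraries, peaks of replicate 1 and peaks of replicate 2, each on its own scale. First introns lie higher from 1 to 2 kb, at 12.3 against 7.79 per Mb in the left panel, and beyond 20 kb the intervals of both lines overlap.

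The difference was present at every length of intron. In exon-free stretches shorter than 5 kb, first introns had 10.7 regions per Mb and later introns 7.06, a ratio of 1.52 (1.30 to 1.77). In stretches over 100 kb these were 3.57 and 2.26 per Mb, a ratio of 1.58 (1.24 to 2.02). The 3 length classes between gave ratios from 1.41 to 1.49. Within a stretch, density in first introns was 8.67 per Mb in the part nearest the 5′ end of the stretch and 9.11 at its 3′ end, with 8.17 in the middle, when each stretch was cut into 5 equal parts. Later introns had 5.33 and 4.93 per Mb in the outermost parts and 6.81 in the middle. Regions that touch an exon are not counted here, and their part in the lower outermost densities was not tested.

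First introns were denser than later ones in genes with an open promoter. A promoter was called open when each library had a peak within 500 bp of a start site of a coding transcript. In such genes first introns had 11 regions per Mb and later introns 7.80, a ratio of 1.41 (1.32 to 1.51). In genes with no promoter peak in either library the densities were 4.37 and 3.93, and the ratio of 1.11 (0.958 to 1.29) held 1 within its interval. From 1 to 2 kb in open genes the densities were 16.2 and 8.23 per Mb (ratio 1.96, 1.56 to 2.47). In these genes the interval of the ratio held 1 from 10 to 50 kb, but from 50 to 100 kb first introns were denser, at 8.66 against 5.39 per Mb (1.61, 1.19 to 2.14). Among genes with an open promoter, ordered by promoter value into 5 equal sets, the ratio was 1.20, 1.49, 1.46, 1.90 and 1.41. Density over all introns did not climb with promoter value, at 7.06, 11.2, 9.67, 9.01 and 9 per Mb, against 4.15 without a promoter peak.

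Most host genes held a single region. A coding host was found for 6211 regions (87.5%), and for 4823 of these (77.7%) a host had an open promoter. Summed gene by gene, coding genes with an open promoter hold 552 of the 892 Mb of intronic space of all coding genes. Of 19252 coding genes with intronic space, 3417 (17.7%) held a region, 2093 of them just 1 and 201 of them 5 or more. The share was 22.6% of 11058 genes with an open promoter and 9.67% of 7318 genes without any promoter peak. The latter also had less intronic space, a median of 7.97 kb against 15.4 to 28.8 kb in the sets of open genes ordered by promoter value. In 2843 genes with at least 10 kb of both kinds of intron, first introns had 7.08 regions per Mb and later introns 6.16, a ratio of 1.15 that compares introns of the same genes. Of these genes, 323 had regions in first introns alone, 591 in later introns alone and 300 in both. Counted by gene, first introns were denser in 511 and later introns in 703, the opposite direction to the pooled densities. A gene with regions in a single kind of intron counts for that kind whatever its density. Where both kinds held regions, first introns were denser in 188 genes and later introns in 112, the direction of the pooled densities.

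Regions of first and later introns differed in sequence content. Each region's central 200 bp was scanned for 18 motifs in either orientation, and a match describes the reference sequence alone. The CTCF motif was found in 13.7% of first-intron windows (12.2 to 15.3) and 21.7% of later-intron windows (20.4 to 23.1). It was found in 18% of all intronic windows, against 1.71% of 13522 windows of the same length 1 kb to either side. In promoter windows the share was 4.86%, and in all regions open in both libraries 12%. Intergenic and exonic windows held the motif at least as often as intronic ones, in 21% and 20.5%. A high share is thus not particular to introns. The share was lower in first introns at each distance up to 100 kb, with 14.5% against 26.3% from 1 to 2 kb, 10.4% against 24.8% from 5 to 10 kb and 10.7% against 18.7% from 20 to 50 kb. From 2 to 5 kb (18.7% against 23.4%) and from 50 to 100 kb (11.2% against 14.4%) the intervals overlapped. Over 100 kb the order was the other way, from 4 of 19 and 10 of 83 regions.

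For CTCF the order of densities was turned round. Regions with the motif had a density of 1.12 per Mb in first introns and 1.35 per Mb in later introns, a ratio of 0.830 (0.722 to 0.953, from 279 and 796 regions). Regions without it had 7.08 and 4.88 per Mb, a ratio of 1.45 (1.37 to 1.54). This split was made after the data were seen. The ratio of regions with the motif was 0.812 with the peaks of replicate 1 and 0.876 with those of replicate 2. With peaks at or above the median of their list it was 0.922, and its interval of 0.753 to 1.12 held 1.

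Footprints fell on CTCF matches more often than on the other motifs with at least 10 matches. Of 1306 CTCF matches in intronic windows, 85.1% overlapped a footprint of both libraries (83.1 to 87.0), where 9.89% of all window bases did. This share was 36.1% for GGGCGG, 35.7% for the nuclear factor I core, 19.1% for the MyoD E-box, 12.2% for TEAD and 11.3% for AP-1. A footprint overlapping a motif by a single base counts, so longer motifs have more chance of an overlap. The 9.89% is a share of single bases, and any string of several bases would overlap more often. The shares of TEAD and AP-1 are thus not shown to exceed the background. Of merged intronic regions with a CTCF match, 58.9% were open in both animals, against 36.6% of those without.

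**Figure D3:**
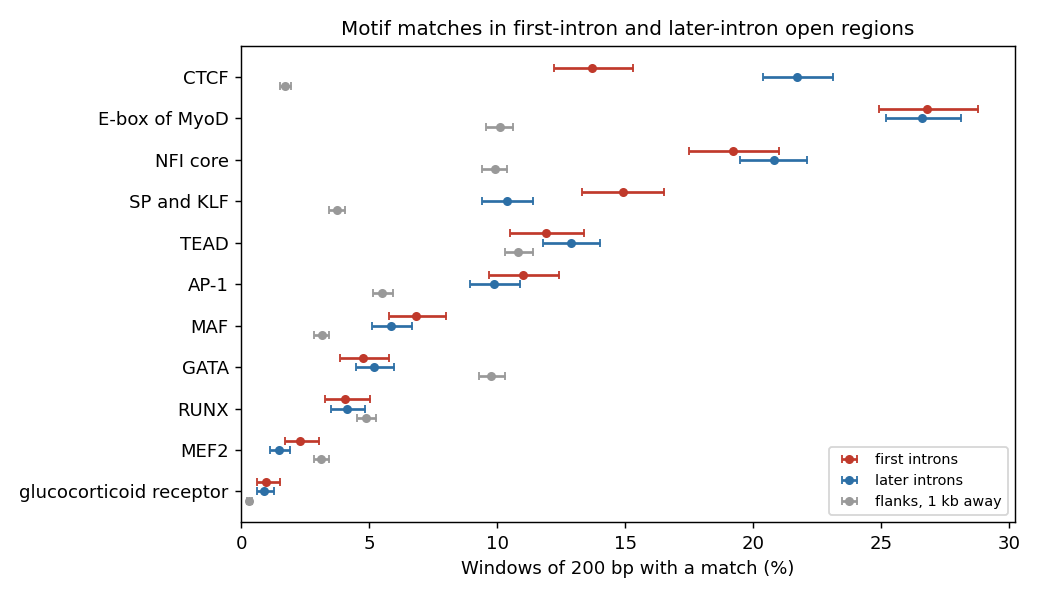
Share of 200 bp windows with at least 1 match, for first-intron regions (red), later-intron regions (blue) and flanks 1 kb away (grey), with exact 95% intervals. CTCF stands at 13.7% in first introns, 21.7% in later introns and 1.71% in flanks, while the intervals of both intron kinds overlap for the E-box, AP-1 and TEAD.

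CpG-rich regions showed the opposite pattern. A window was called CpG-rich at a GC content of at least 50% and a ratio of observed to expected CpG of at least 0.6, the usual marks of a CpG island. This held for 164 first-intron regions (8.04%) and 129 later-intron regions (3.52%), or 0.659 and 0.219 per Mb, a ratio of 3.01 (2.38 to 3.82). It held for 72.0% of promoter, 18.8% of exonic and 9.95% of intergenic regions. The difference in share between first and later introns was largest from 1 to 2 kb from a start site, at 18.5% and 5.26%. From 5 to 10 kb the shares were 8.22% and 2.49%, and from 20 to 50 kb 3.69% and 3.41%. From 50 to 100 kb the order was the other way, at 2.50% and 3.96%. Over 100 kb they were 5.26% of 19 and 2.41% of 83 regions. GGGCGG, which SP and KLF factors bind at CpG islands, was found in 14.9% of first-intron and 10.4% of later-intron windows, against 3.73% of flanks and 55.2% of promoter windows. Start sites differ between annotations, and 6.18% of first-intron and 3.62% of later-intron regions lay within 1 kb of a RefSeq start site. Leaving out CpG-rich regions and those with a CTCF match, the ratio of densities was 1.38 (1.30 to 1.47).

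The MyoD E-box was the most frequent of the 18 motifs in intronic windows. It was found in 26.8% of first-intron and 26.6% of later-intron windows, against 10.1% of flanks, 13.7% of promoter windows and 19.8% of all regions. Intergenic and exonic windows held it about as often, in 25.3% and 26.5%. The nuclear factor I core was found in 20.8% of intronic windows, against 9.92% of flanks, and AP-1 (TGANTCA, the stress-responsive FOS and JUN dimer) in 10.5% against 5.51%. MAF (TGCTGAC) was found in 6.09% against 3.14%. In intergenic windows the shares were 19.5% for the nuclear factor I core, 10.5% for AP-1 and 5.36% for MAF. In exonic windows they were 17.2%, 7.82% and 6.06%. Flanks were poorer in GC, with a median of 47.0% against 54.0% in intronic windows, and AT-rich motifs were less frequent in open windows: MEF2 in 1.79% against 3.12% and AGATAA, read by GATA factors, in 4.96% against 9.76%. TEAD differed little, at 12.8% of intronic windows and 10.8% of flanks.

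Per Mb, regions with most of these motifs were denser in first introns, as intronic regions as a whole were. The ratio of first to later introns was 1.33 for regions with an E-box (1.19 to 1.47), 1.47 for AP-1 (1.24 to 1.74), 1.22 for the nuclear factor I core (1.07 to 1.38) and 1.53 for MAF (1.23 to 1.90). MEF2 had 2.06 (1.36 to 3.11) from 47 and 54 regions. For AGATAA the interval held 1, at 1.21 (0.937 to 1.55). Over all intronic regions the ratio was 1.32 (1.25 to 1.39). The intervals of the E-box, AP-1, the nuclear factor I core, MAF and AGATAA held 1.32, and that of MEF2 lay above it. Apart from MEF2, these ratios are thus not shown to differ from that of all intronic regions. The motif of the glucocorticoid receptor was rare. It was found in 2.51% of intronic regions at or above the 80th percentile in both libraries, in 9 of 358, against 0.360% of those below the median in both and 0.318% of flanks. The motif of PAR bZIP factors (TTANGTAA), clock output regulators such as TEF, was found in 1.49% of all intronic regions and 1.78% of flanks. Among the strongest intronic regions it was found in 11 of 358, or 3.07% (1.54 to 5.43), an interval that holds the share of flanks. Of those below the median in both libraries, 1.24% had it.

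**Figure D4:**
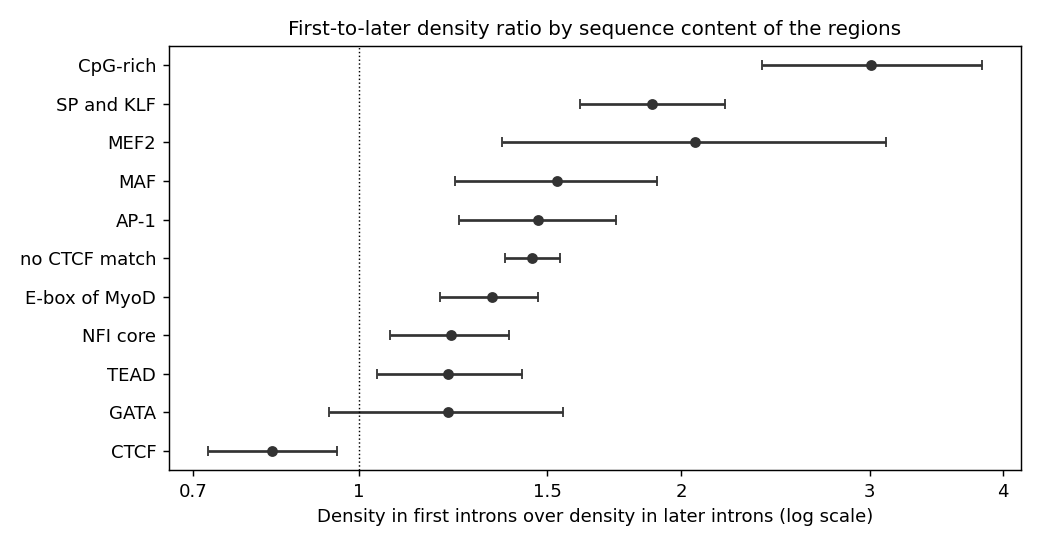
Density of open regions in first introns over that in later introns on a log scale, for regions grouped by what their 200 bp window holds, with exact 95% intervals. CpG-rich regions lie at 3.01 and regions with a CTCF match at 0.830, on opposite sides of the dotted line of equal density.

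Among the 5 strongest first-intron regions, Mnt led by the lower of both percentiles. Next came Nr1d1, the clock repressor REV-ERB alpha, at chr11:98773801-98774200 with values of 24.3 and 10.6, 1133 bp from the nearest start site. The region of Per1, a core clock repressor that glucocorticoids also induce, lay at chr11:69096981-69097240 with 21.1 and 10.3. It was 1708 bp from a start site and overlaps an exon in RefSeq, and a match to the glucocorticoid receptor motif lies within it. A region at chr8:121585421-121585700 (15.6 and 10.8) lies in Gm20388, a gene model of 4435 kb that spans many other genes. Zfp516, a zinc finger factor, had 13.1 and 8.98, in a region 165 bp from a RefSeq start site. All 5 lay above the 97th percentile in both libraries.

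Among later introns the strongest region was in Mid1, a ubiquitin ligase of microtubules on the X chromosome, with values of 29.1 and 12.2 over 540 bp. A second Mid1 region had 14.4 and 7.65. Mouse Mid1 is known to straddle the boundary of the pseudoautosomal region, where repeats are frequent, and how reads were placed there is not given in the sources used here. Trpm3, a cation channel gene, had 20.6 and 9.72, but this region lies 735 bp from a RefSeq start site and overlaps an exon in RefSeq. Itpkb and Atoh8 completed the 5 regions, and their nearest annotated start sites lay 11097 and 17597 bp away.

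The coding genes with the most regions included several regulators. Gm20388 (ENSMUSG00000092329.1, chr8:119910841-124345722) held 114 and Fgfr2 (ENSMUSG00000030849.18), a growth factor receptor with 2561 kb of intron in this annotation, held 35, together 2.10% of all intronic regions. Gse1 held 23, which lie within Gm20388 too. Maml3, a coactivator of Notch, held 18, Rora, a nuclear receptor of the clock, 16, and Sh3pxd2a, a podosome scaffold, 15. Arhgap26, a GTPase-activating protein, has overlapping entries in this annotation. The entry ENSMUSG00000118193.1 (chr18:38676718-39110534), without a promoter peak, held 14, and ENSMUSG00000036452.18 (chr18:38993145-39376284), with an open promoter, held 11. Nfib held 13, and Tns1, an adhesion protein, 12. Of the 16 regions of Rora 12 lay in a first intron, and so did 9 of the 18 of Maml3.

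Of the gene lists with at least 10 regions, those of the clock, stress and atrophy and of muscle transcription factors had the most per Mb of intron, the second through its 4 nuclear factor I genes. These lists were chosen with earlier results of these data known, so their counts are a description beside all coding genes, of which 17.7% held a region at 7.21 per Mb (7.03 to 7.39). Clock, stress and atrophy genes held a region in 14 of 23 members with intronic space, 44 regions at 25.3 per Mb (18.4 to 33.9). Rora had the most, followed by Fkbp5, a glucocorticoid-induced chaperone, with 5 and Zbtb16 and the clock gene Per2 with 4 each. The strongest region of Per2 had 2.81 and 2.23, and Clock and Per3 had none.

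Muscle transcription factors held a region in 14 of 27 members, 62 regions at 21 per Mb (16.1 to 27.0). The 4 nuclear factor I genes held 39 of these, and without them the other members had 23 at 10.9 per Mb (6.92 to 16.4), below the sarcomere list. Nfib had 13, Nfix, which turns on fetal muscle genes, 10, and Nfic 9, with 9.69 and 7.92 at its strongest. Myod1, Myog, Myf5 and Myf6, the MyoD family, had none, each with less than 1 kb of intronic space. Growth and calcium signalling genes held one in 18 of 27, 46 regions at 15.5 per Mb, with 7 each in Hdac4, a repressor of MEF2, and Igf1r, and 6 in Smad3, a transducer of TGF-beta and myostatin signals.

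Sarcomere genes had one in 12 of 27 members, 19 regions at 14.1 per Mb (8.47 to 22.0). Flnc, a filamin of the Z-disc, had 4 in 18.8 kb of intron, the strongest at 2.16 and 1.49, and Ldb3, Mylk4, Tpm2 and Xirp2 had 2 each. Ttn, which encodes titin, had none in 142 kb, which by a limit of 3 counts allows up to 21.1 per Mb. Excitation-contraction genes had one in 13 of 20, 29 regions at 12 per Mb. Cacna1s, the voltage sensor of the transverse tubule, and Cacna2d1, a subunit that goes with it, had 4 each, weak ones, with 1.62 and 1.26 at the strongest of Cacna1s.

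Genes of the dystrophin complex and membrane were less dense than all coding genes, with 30 regions at 4.35 per Mb (2.94 to 6.22) in 11 of 19 members. Dmd, on the X chromosome, makes up 2.21 of their 6.89 Mb of intron and held none, and without it the density was 6.41 per Mb (4.32 to 9.15), an interval that holds the 7.21 of all coding genes. Ank3 had 8 and Ank2 6, both ankyrins, and Itga7, the laminin receptor of muscle, 3 in 13.0 kb. Metabolic genes held one in 7 of 28, at 8.58 per Mb, among them Ppard, a fat-sensing nuclear receptor, with 4, and Esrrb and Esrrg, orphan nuclear receptors, with 3 each. Genes of the neuromuscular junction held one in 4 of 16, at 3.03 per Mb (0.984 to 7.07), with 2 in Ncam1.

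Markers of other cells in muscle held regions too. Endothelial genes had one in 7 of 14, at 11.7 per Mb, with 6 in Pecam1, the endothelial adhesion molecule CD31, where the strongest had 4.91 and 4.15. Promoters were open at 8 of 14 endothelial genes, but Pecam1 had no promoter peak. Satellite cell genes had one in 5 of 14, fibro-adipogenic progenitor genes in 4 of 14, and smooth muscle and pericyte genes in 5 of 10. Schwann cell genes had one in 3 of 8, with 4 in Mbp, the myelin basic protein, which had no promoter peak. Few regions stand behind the densities of the progenitor (22.5 per Mb, from 8) and Schwann cell lists (37.0 per Mb, from 6). Tenocyte and adipocyte genes had one in 1 of 5 each. Blood cell genes had one in 3 of 15, with 9 regions in all, although 1 of 15 had an open promoter. Of these regions 6 lay in the Cx3cr1 gene model, which spans chr9:119901616-120069879 with 112 kb of intron. Spi1 had 2 (5.66 and 3.93 at its strongest). Neither gene had a promoter peak, and whether these regions are open in blood cells was not tested. By contrast, 8 of 16 neuronal genes held one, but at 1.64 per Mb (1.01 to 2.50) over 12.8 Mb of intron, and 1 of 12 liver genes did, Hnf4a with 2. Promoters were open at 13 of 29 sarcomere genes (44.8%), 2 of 16 neuronal genes and 0 of 12 liver genes, against 11849 of 21938 coding genes (54.0%). By these counts the sarcomere share lay below that of all coding genes and above those of the neuronal and liver lists. Whether it differs from any of them was not tested, and no identity of the tissue is drawn from it.

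**Figure D5:**
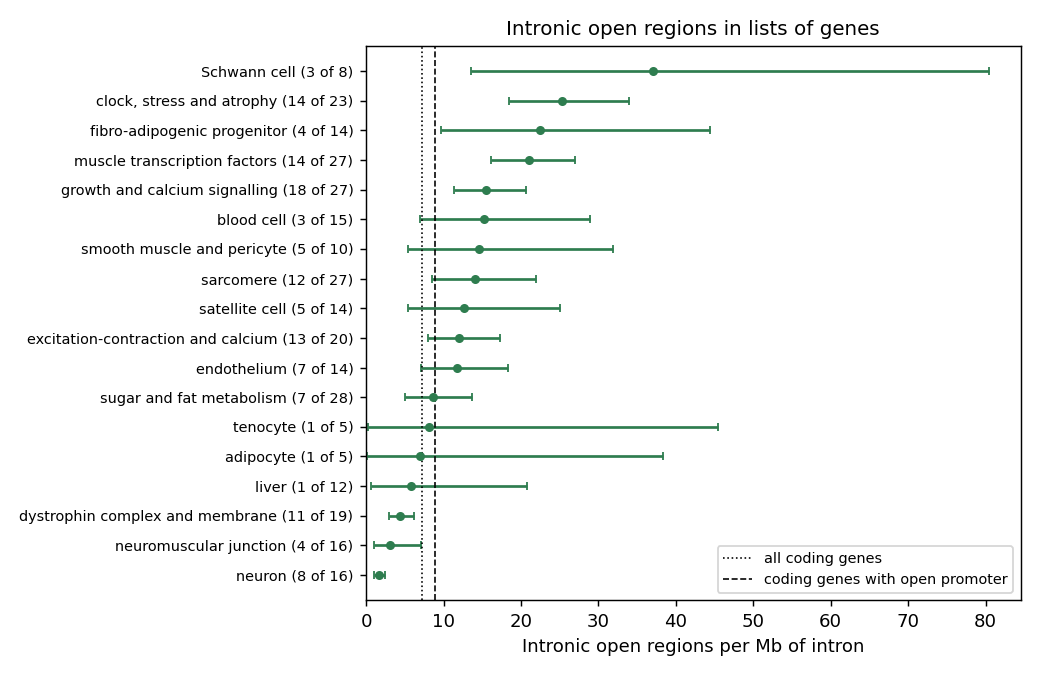
Intronic open regions per Mb of intron over each list of genes, with exact Poisson 95% intervals and, in brackets, the members with a region of those with intronic space. Dotted and dashed lines mark all coding genes (7.21 per Mb) and those with an open promoter (8.95 per Mb). Clock, stress and atrophy genes (25.3) and muscle transcription factors (21, nuclear factor I genes included) lie right of both lines, neuronal genes (1.64) left of them.

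The X chromosome was poor in intronic regions. It held 89 in 44.9 Mb, or 1.98 per Mb (1.59 to 2.44), against 7.24 per Mb on autosomes, a ratio of 0.274. With the peaks of replicate 1 the ratio was 0.327, and with those of replicate 2 it was 0.283. Among autosomes density ran from 4.91 per Mb on chromosome 3 to 9.90 on chromosome 11, and the Y chromosome held 0 in 5.21 Mb, which by the limit of 3 counts allows up to 0.575 per Mb. There were 9.73 promoter regions per 100 start sites on X and 13.0 on autosomes. Within genes with an open promoter, density was 3.11 per Mb on X and 9.06 on autosomes. Males carry a single X, and its part in the difference was not tested.

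Dmd (ENSMUSG00000045103.17, chrX:82948870-85206141), which encodes dystrophin, has 2209 kb of intron and an open promoter but held 0 intronic regions, which by the limit of 3 counts allows up to 1.36 per Mb. Each library had 1 of its own, and the longer lists held 2 common to both. Of 207 coding genes with at least 500 kb of intron, 78 held no region, 7 of 9 on the X chromosome and 71 of 198 on autosomes. With the depth unknown, an absent region means that no peak reached the threshold of the deposited lists.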

How the data were processed

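DNase-seq of 2 gastrocnemius samples was used. Per the labels, files are on mm10, and nuclei were isolated from tissue. Peaks were called per library. Not given in the sources used here were the aligner, the callers, the depth and how CAST/EiJ alleles were aligned. The authors deposited a signal per peak (height of cleavage density), and a footprint list whose score is 1 constant, so positions alone were used. Tables of false discovery rates were not used.

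Regions were classed as promoter, exon, intron or intergenic, in that order. Distances run from a region's edge to the nearest start site, and distance classes use midpoints. Motifs were E-box CAGCTG, AP-1 TGANTCA, TEAD CATTCC, NFI (full palindrome, by name) and its core TTGGCA, MEF3 TCAGGTT, ESRR TCAAGGTCA, PAR bZIP TTANGTAA, RUNX TGTGGTT, ETS CCGGAAG, SP and KLF GGGCGG, FOX TGTTTAC, MAF TGCTGAC, and, by name, CTCF, MEF2, the glucocorticoid receptor and the CArG box. GATA factors were searched as AGATAA. The NFI motif and its core can overlap. Flanks in a peak were left out. Sequences are from RefSeq's GRCm38.p6.

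Members, lists (307 entries) and rules were chosen with earlier results of these data known. Named were the 5 first-intron and the 5 later-intron regions with the highest lower percentile, up to 3 genes per list and the 10 coding genes with most regions; sequences at most 300 bp long, off chromosome 18 and outside RefSeq exons, were printed. One of these genes is not reported here. Other named genes were chosen after their values were seen. No test over samples was possible with 1 group, so no p-values are given. The density code was tested on simulated data. Alternatives were a 50% reciprocal overlap, peaks at or above the median, the longer lists, other distances and transcripts, and each library alone. Python 3.11.15, numpy 2.4.6, scipy 1.17.1, pysam 0.24.0 and matplotlib 3.10.9 were used.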

Additional observations from a re-analysis of the deposited data

How the results depend on the processing

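First introns stayed denser than later ones under every alternative tried, with ratios from 1.24 to 1.49 beside the 1.32 reported. The ratio was 1.49 with peaks of median height or more, 1.44 with a limit of 500 bp from start sites and 1.24 with 2 kb, and 1.31 to 1.46 when either library was left out. The number of intronic regions was 2906 with peaks at or above the median, 14273 with the longer lists, and 11561 to 13908 with a single library. Their share was 22.9% with a 50% reciprocal overlap, 15% with peaks at or above the median, 27.6% with the longer lists, 23.8% at 500 bp, 19.3% at 2 kb, 23.5% with basic transcripts and 24.2% to 27.5% with a single library. The cause of these moves in share was not tested. The difference in median percentile of 3.94, by the lower of both libraries, was 1.43 with peaks at or above the median and 0 to 3.87 with a single library; the cause was not tested. From 10 to 20 kb the ratio ran from 1.04 to 1.21, and for regions with a CTCF match from 0.773 to 0.922, with an interval that held 1 at 0.922 (0.753 to 1.12, peaks at or above the median), a result and its alternatives added after the data were seen. Merging peaks that touch, or leaving out Gm20388 and Fgfr2, was also added then. Both kept the share and the ratios within the counting intervals of the reported values. The difference in percentile moved by less than the SD of 2.10 between the libraries. The number of regions, which has no interval, was 7097 and 6946 beside 7095. No paired analysis was possible because both libraries belong to 1 group. Depth limits what a missing peak means, since it is unknown.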

Other observations

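Intronic regions found in a single library differed in content between the animals. Those of replicate 1 alone numbered 6558, with a median percentile of 25.6, and those of replicate 2 alone 4400, with 12.4. AP-1 matches were found in 13.7% of the windows of replicate 1 alone and 6.18% of those of replicate 2 alone. The shares were 24.0% and 13.9% for the nuclear factor I core, 25.2% and 18.1% for the MyoD E-box, and 3.23% and 1.18% for MEF2. CTCF matches were found in 8.14% and 8.09%. First introns held 27.9% of the regions of replicate 1 alone and 33.9% of those of replicate 2 alone. Regions of replicate 2 alone are weaker, so the shares were set side by side at like rank. Flanks of regions open in both libraries held AP-1 in 5.51%, the nuclear factor I core in 9.92% and CTCF in 1.71%. Regions of replicate 2 alone below the 20th percentile lay closest to these shares. At that rank, 23.7% of intronic peaks of replicate 1 and 11.8% of those of replicate 2 recurred in the other library. Below the 20th percentile (2586 and 2816 regions), AP-1 was found in 13.1% (11.8 to 14.4) and 5.47% (4.66 to 6.37), the nuclear factor I core in 25.2% and 12.3%, and CTCF in 8.39% and 2.98%. From the 20th to the 40th percentile (2239 and 1022 regions), AP-1 was found in 14.4% (13.0 to 15.9) and 8.02% (6.43 to 9.86), but CTCF in 7.99% and 12.7%.

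Regions open in both libraries ranked differently by CTCF content. With a CTCF match, intronic regions had a median percentile of 51.5 in replicate 1 and 59.1 in replicate 2, and replicate 1 ranked them higher in 28.1%. Without one, the medians were 53.3 and 48.9, and replicate 1 ranked them higher in 56.2%. Each animal gave 1 library, so animal and library cannot be told apart.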
